A study of Mus musculus with 16 samples.

Results

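The 8 genes described here control the phosphate and pyrophosphate balance of mineralizing bone or restrain mineral growth: Alpl, Enpp1, Ank, Slc20a1, Slc20a2, Phospho1, Smpd3 and Mgp. They were chosen by symbol from the 36829 features listed for every mouse, and all 8 were found and had a mean of at least 0.5 RPKM (reads per kilobase of transcript, scaled to the reads of the library), a level that 16973 features reached. RNA was sequenced from femoral cortical bone of 16 female C57Bl/6 mice aged 11 weeks, with 1 library for each mouse. The 8 HLU mice had their hindlimbs unloaded for a week by suspension from the tail, and the 8 Control mice bore weight normally. The labels name no allele and no other agent for either group. The bone ends had been cut off and the marrow flushed out before RNA was extracted, and cells that stayed in the bone contributed RNA.

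Mineral forms when inorganic phosphate meets calcium in the collagen matrix, and pyrophosphate blocks the growth of its crystals. Enpp1 makes pyrophosphate from ATP outside the cell, Ank lets pyrophosphate leave the cell, and the alkaline phosphatase Alpl splits pyrophosphate into phosphate. Slc20a1 and Slc20a2 carry phosphate into cells with sodium. Smpd3 frees phosphocholine from sphingomyelin, and the phosphatase Phospho1 takes the phosphate from phosphocholine inside the matrix vesicles that osteoblasts and chondrocytes shed. Mgp is a vitamin K-dependent protein of cartilage, bone and vessel walls that inhibits calcification.

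RefSeq promoters on build GRCm38.p6, each holding 250 bases before and 50 after a transcription start, matched 5 of the 8 genes with 7 starts. The 150 bases just before the first listed start are printed for Alpl, Phospho1, Ank and Slc20a1. Alpl and Phospho1 had the highest Pearson's r between mice among pairs of the 8 genes (0.874), with Ank and Mgp close behind (0.872). By Spearman's rho, Ank and Mgp came first (0.918 against 0.897). Slc20a1 varied against the other genes printed. Capitals mark 3 motifs on either strand, the GC box spelled GGGCGG, the CCAAT box spelled CCAAT and the RUNX motif spelled TGTGGT, and overlapping matches run together.
Alpl (chr4:137796385-137796534, minus strand): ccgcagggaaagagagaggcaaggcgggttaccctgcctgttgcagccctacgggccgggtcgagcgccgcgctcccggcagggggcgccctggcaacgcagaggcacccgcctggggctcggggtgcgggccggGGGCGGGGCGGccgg
Phospho1 (chr11:95824350-95824499, plus strand): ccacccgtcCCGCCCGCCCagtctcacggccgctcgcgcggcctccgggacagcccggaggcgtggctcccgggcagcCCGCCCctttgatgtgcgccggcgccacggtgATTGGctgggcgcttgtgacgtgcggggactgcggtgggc
Ank (chr15:27466527-27466676, plus strand): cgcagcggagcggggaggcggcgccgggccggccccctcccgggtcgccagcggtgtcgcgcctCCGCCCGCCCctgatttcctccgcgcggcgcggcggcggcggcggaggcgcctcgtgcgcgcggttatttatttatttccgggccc
Slc20a1 (chr2:129198623-129198772, plus strand): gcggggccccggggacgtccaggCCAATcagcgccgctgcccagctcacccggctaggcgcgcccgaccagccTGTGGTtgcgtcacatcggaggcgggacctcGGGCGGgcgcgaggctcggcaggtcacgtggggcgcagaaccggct
All 4 windows were rich in G and C over their 300 bases, with 70% GC at Alpl, 77% at Phospho1, 78% at Ank and 73% at Slc20a1, against a median of 52.7% over 32851 promoters. The GC box occurred in 6 of the 7 windows and in 35.7% of all promoters. A CCAAT box occurred in the Phospho1 window and the first Slc20a1 window, and in 37.4% of all promoters. The RUNX motif was found in the first Slc20a1 window and in the Enpp1 window, and in 16.8% of all promoters. These letter matches are descriptions of the sequence, and binding was not measured.

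The number of reads behind each library, recovered from the steps between its RPKM values, ran from 7067512 (Control 2) to 21363584 (HLU 6). Osteoblast and osteocyte markers were abundant: the 10 listed genes summed to between 944 and 2275 RPKM in Control mice and between 1252 and 2712 RPKM in HLU mice. Granulocyte markers summed far higher, with 5 of the 7 listed genes at 17226 to 37154 RPKM in Control mice and 12162 to 43709 RPKM in HLU mice. The 6 erythroid markers summed to 2102 to 4989 RPKM in Control mice and 988 to 2706 RPKM in HLU mice, a log2 difference of -0.64 (exact permutation test, two-sided p = 0.0270, unadjusted). That p was the smallest among the cell type lists tested in this way. The granulocyte sum differed by -0.15 on the log2 scale (exact permutation p = 0.566). Only 2 of 5 chondrocyte markers reached a mean of 0.5 RPKM, and the sum of all 5 stayed between 4.85 and 25.8 RPKM. In bulk RNA of this kind, fewer cells of a type and less RNA per cell cannot be told apart.

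The genes spanned a wide range of transcript abundance. Mgp was the highest, at the 99.2nd percentile of the features kept, with Control medians of 233 RPKM for Mgp, 39.7 for Ank, 26.4 for Alpl, 21.8 for Slc20a1, 10.7 for Phospho1, 9.91 for Slc20a2, 5.07 for Enpp1 and 1.29 for Smpd3. HLU medians followed the same order. Of the 7 neighbours in this order, 5 differed by more than the spread between Control mice (exact sign-flip permutation test within mice, Benjamini-Hochberg adjusted p of 0.0273 or 0.0328). Alpl and Slc20a1 did not (Alpl higher in 5 of 8 Control mice, exact sign-flip p = 0.367), nor did Slc20a1 and Phospho1 (6 of 8 mice, exact sign-flip p = 0.0547, adjusted p = 0.0638). In HLU mice, Alpl exceeded Slc20a1 in 7 of 8 mice (exact sign-flip permutation test, adjusted p = 0.0328), whereas Slc20a1 and Phospho1 again did not differ beyond their spread (5 of 8 mice, exact sign-flip p = 0.445).

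The order rests on the gene lengths behind the deposited values. The length recovered from the RPKM steps was 9989 bases for Slc20a1 and 1968 bases for Smpd3, whereas the exons of these genes in the GENCODE M21 annotation cover 5580 and 5232 bases. With GENCODE lengths, a choice made after the values were seen, Slc20a1 (39.0 rescaled RPKM) moved above Alpl (29.9) in Control medians and Enpp1 (6.08) moved above Slc20a2 (5.82), while Mgp and Ank stayed first and second and Smpd3 last. The length cancels from a ratio between groups, except for what the pseudocount of 0.1 adds at the low values of Smpd3.

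**Figure D1:**
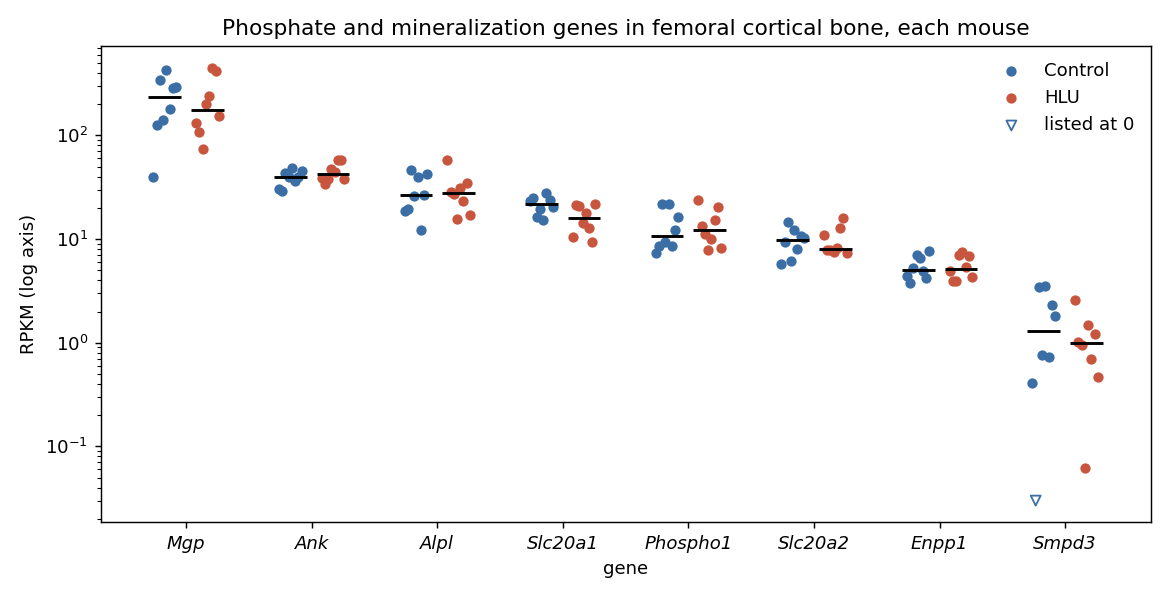
RPKM of each gene (log axis) in each of the 8 Control and 8 HLU mice, with the group median as a bar and an open triangle for the Control mouse in which Smpd3 was listed at 0. Slc20a1 is the gene whose HLU values all lie below the Control median of 21.8 RPKM, and Mgp and Smpd3 have the widest spread between mice.

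Whether a week of unloading changed these transcripts was asked of each gene in turn. A feature was called at an unadjusted limma p under 0.05 with a change of at least 1.2-fold. By this rule 1 of the 8 genes, Slc20a1, was lower after HLU, against 4.76% of all 16973 features, and none was higher, against 1.11%. No feature passed an adjusted p under 0.1 (0.0% called), although 1049 features had an unadjusted p under 0.05. Across the 8 genes 5 estimates were above 0 and 3 below, with a median log2 fold change of 0.01, and over all features the median was -0.10. Rescaling the libraries by median of ratios moved that overall median to -0.01 and the share of called features that were higher from 18.9% to 49.1%, and quantile normalization moved the share to 55.8%.

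Slc20a1, one of the sodium-coupled phosphate importers, ranged from 15.4 to 28.03 RPKM in Control mice (median 21.8) and from 9.46 to 21.6 RPKM in HLU mice (median 16.1). All 8 HLU mice lay below the Control median, 4 of them lay below every Control mouse, and 4 Control mice lay above every HLU mouse, so the groups overlapped in part. Mean abundance was 21.5 ± 4.32 RPKM under weightbearing and 16.1 ± 4.96 RPKM under unloading (SD, n = 8 mice in each group). The log2 fold change was -0.45 with an SE of 0.19 and a 95% interval of -0.86 to -0.04 (limma p = 0.0301, Benjamini-Hochberg adjusted p = 0.744, exact permutation p = 0.0399). It was lost, with the same sign, under several other settings: -0.36 by median of ratios, -0.31 by quantile normalization, and -0.35 to -0.52 when any 1 mouse was left out, where it fell short without Control 2, Control 6, Control 7, HLU 1, HLU 6 or HLU 7. With the marrow marker score, the mean centred log2 level of the erythroid and granulocyte genes, as a covariate, the estimate was -0.23 and was not called. That score was itself 0.37 lower on the log2 scale in HLU mice, at -0.18 against 0.18, which an exact permutation test did not separate (p = 0.163).

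Slc20a2, the other importer of the family, lay at like levels in both groups. Control mice ranged from 5.76 to 14.7 RPKM (median 9.91) and HLU mice from 7.30 to 15.8 RPKM (median 8.05). The log2 fold change of Slc20a2 was 0.02 with an SE of 0.21 and an interval of -0.43 to 0.48 (exact permutation p = 0.918). The log2 ratio of Slc20a1 to Slc20a2 within a mouse averaged 1.18 ± 0.669 in Control and 0.71 ± 0.851 in HLU mice (SD over 8 mice in each group). Of the HLU mice, 3 had a ratio below every Control mouse, but the difference of -0.47 did not pass (exact permutation p = 0.236, adjusted p = 0.904 over 5 ratios).

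The enzymes and the transporter that set extracellular pyrophosphate overlapped between groups. Alpl, the enzyme that removes pyrophosphate, ranged from 12.2 to 46.5 RPKM in Control mice (median 26.4) and from 15.5 to 58.0 RPKM in HLU mice (median 27.8). Its highest value was in HLU 1 and its lowest in Control 6. The log2 fold change of Alpl was 0.04 with an SE of 0.30 and an interval of -0.59 to 0.67 (exact permutation p = 0.899), an interval that leaves room for a change of more than 1.2-fold in either direction.

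Enpp1, the source of extracellular pyrophosphate, ranged from 3.76 to 7.70 RPKM in Control mice (median 5.07) and from 3.91 to 7.58 RPKM in HLU mice (median 5.20). These 2 ranges nearly coincide. The log2 fold change was 0.00 with an SE of 0.18 and an interval of -0.39 to 0.40 (exact permutation p = 0.996).

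Ank, the pyrophosphate exporter, varied least of the 8 genes between mice of a group, with a within-group SD of 0.27 on the log2 scale against a median of 0.43 over the features kept. It ranged from 29.4 to 48.8 RPKM in Control mice (median 39.7) and from 34.1 to 57.7 RPKM in HLU mice (median 42.1). HLU 6 and HLU 7 lay above every Control mouse at 57.7 and 57.3 RPKM, and the remaining 6 HLU mice lay within the Control range. Ank's log2 fold change was 0.19 with an SE of 0.14 (limma p = 0.193, exact permutation p = 0.189).

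Phospho1 and Smpd3 act in 1 pathway of the matrix vesicle. Phospho1 ranged from 7.38 to 21.98 RPKM in Control mice (median 10.7) and from 7.88 to 24.0 RPKM in HLU mice (median 12.4), a log2 fold change of 0.07 with an SE of 0.28 (exact permutation p = 0.805). In GENCODE M21, 84.2% of the exon bases of Phospho1 are also exon of Abi3 on the opposite strand and 89.6% are exon of Zfp652 on the same strand. The library kit does not mark strand and the annotation used for counting is not given in the sources used here. In every mouse the recovered reads of Phospho1 were 0.801 to 1.04 times those of Abi3, so each Phospho1 value here describes reads that cannot be told apart from those of Abi3.

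Smpd3 was near the limit of detection. It was listed at 0 in Control 2, where the depth allows up to 0.216 RPKM (3 reads), and rose to 3.52 RPKM among Control mice (median 1.29). Among HLU mice it ran from 0.0621 RPKM in HLU 4 to 2.58 RPKM in HLU 1 (median 0.990). No mouse had more than 128 Smpd3 reads, and the within-group SD of 1.498 on the log2 scale was the widest of the 8 genes. The log2 fold change was -0.27 with an SE of 0.69 (exact permutation p = 0.723). It was -0.01 with a pseudocount of 0.01, -0.76 without Control 2 and 0.09 without HLU 4, the mice with 0 and 2 Smpd3 reads.

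Mgp, the mineralization inhibitor, differed 11.4-fold between its lowest and highest mouse. Control mice ranged from 39.7 RPKM in Control 1 to 425 RPKM in Control 5 (median 233), and HLU mice from 73.4 RPKM in HLU 3 to 451 RPKM in HLU 6 (median 178). The spread within each group exceeded any difference between them, with a log2 fold change of -0.01 and an SE of 0.47 (exact permutation p = 0.984), and the sign turned to 0.08 by median of ratios and 0.14 by quantile normalization.

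**Figure D2:**
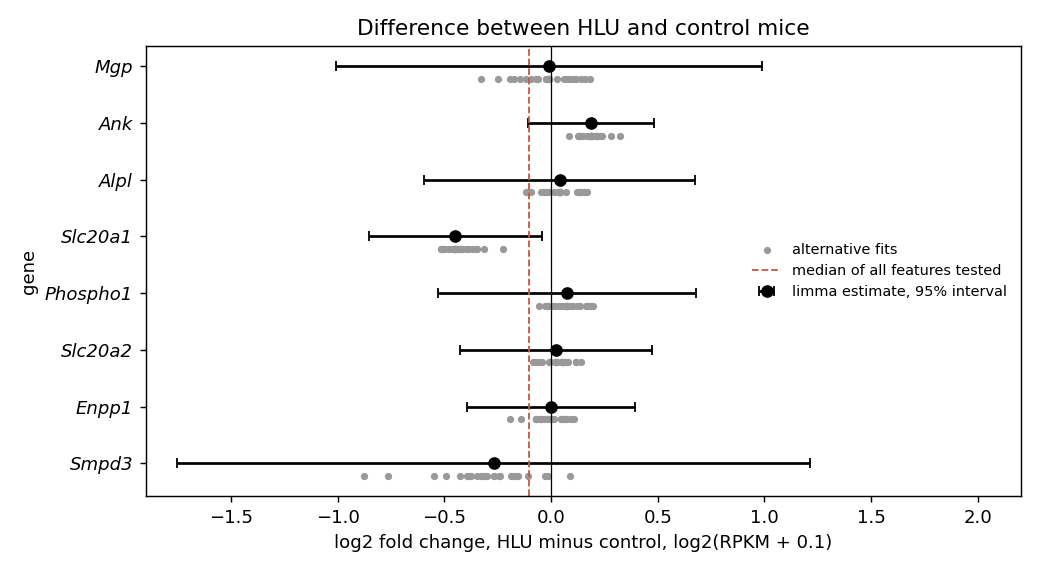
Log2 fold change of each gene between HLU and Control mice on the log2(RPKM + 0.1) scale, with the 95% interval as a bar, the estimates under alternative settings as grey points and the median of all features (-0.10) as a dashed line. The Slc20a1 interval of -0.86 to -0.04 is the one that does not reach 0, and the Smpd3 and Mgp intervals are the widest.

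Ratios within a mouse compare the genes of a pair without regard to library scaling, apart from the pseudocount. Those of Alpl to Enpp1 and to Ank set opposing steps against each other. Alpl exceeded Enpp1 in 16 of 16 mice and exceeded Ank in 2 of 16. On the geometric mean scale Alpl was 4.90 times Enpp1 in Control and 5.03 times in HLU mice, a log2 difference of 0.04 (exact permutation p = 0.904). Alpl relative to Ank was 0.686 in Control and 0.620 in HLU mice, and relative to Phospho1 2.16 and 2.11, with log2 differences of -0.15 (exact permutation p = 0.634) and -0.03 (exact permutation p = 0.836). Phospho1 relative to Smpd3 was 11.1 and 14.1, a log2 difference of 0.34 (exact permutation p = 0.545) that moved to 0.77 without Control 2 (exact permutation p = 0.0577) and to 0.0855 without HLU 4, the mice with the lowest Smpd3. The ratios themselves rest on the gene lengths, and with GENCODE lengths the Control medians are 15.01 rescaled RPKM for Phospho1 and 0.483 for Smpd3. None of the 5 ratios differed between groups beyond the spread between mice.

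**Figure D3:**
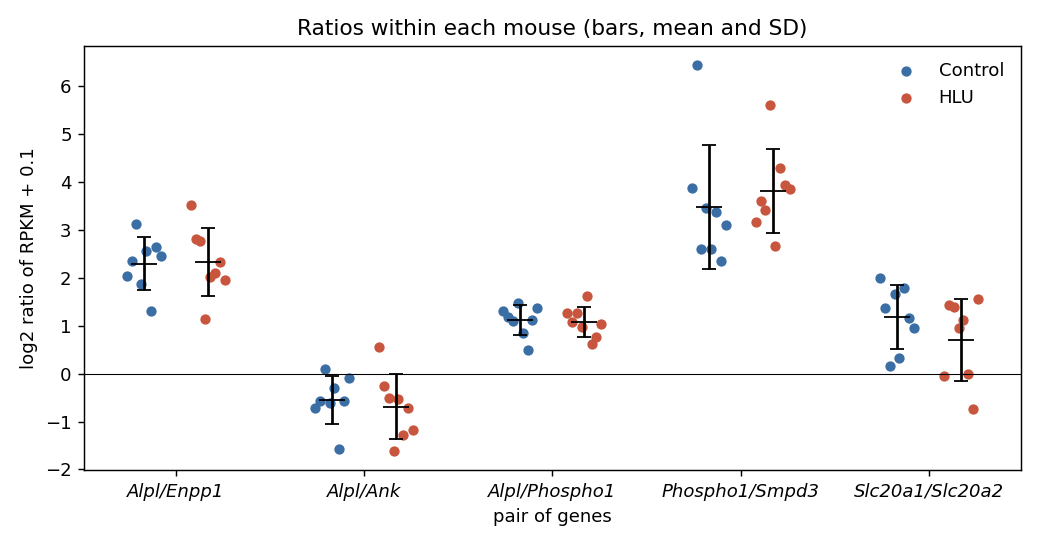
Log2 ratio of 5 pairs of genes within each Control and HLU mouse, computed on RPKM + 0.1, with the group mean and SD as bars. The groups overlap for each ratio, 3 HLU mice lie below every Control mouse for Slc20a1 relative to Slc20a2, and the Control mouse at 6.44 for Phospho1 relative to Smpd3 is the one with Smpd3 listed at 0.

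Other genes of the same pathways gave 1 further call among 30 tested, higher after HLU, against 1.11% of all features called higher and 4.76% called lower. Among the genes for the vitamin K cycle and mineral-binding matrix, 10 of 12 were tested and Mepe, an osteocyte phosphoprotein of the mineralized matrix, was higher after HLU, at 140 ± 75.1 RPKM in Control and 226 ± 78.5 RPKM in HLU mice (SD over 8 mice in each group). The change of Mepe was 0.79 on the log2 scale, with an SE of 0.32 (limma p = 0.0247, adjusted p = 0.744, exact permutation p = 0.0392), and it was no longer called without Control 1, without Control 6 or without the 2 smallest libraries, at 0.66, 0.64 and 0.68. In this list 7 of the 10 estimates were above 0, with a median of 0.23. Above 0 were also 5 of 7 for pyrophosphate and nucleotides, 4 of 11 for sphingomyelin and matrix vesicle lipids, and 17 of 30 over the 5 lists. Of all features 32.1% were above 0, a share that rests on the RPKM scaling (median -0.10, and -0.01 by median of ratios). Dmp1, Mepe, Phex, Bglap and Ibsp of this list are also osteoblast and osteocyte markers here. The lowest estimate there was -0.29 for Vkorc1l1, an enzyme of vitamin K recycling (exact permutation p = 0.0674), which was called, at -0.34, -0.34 and -0.33, without Control 5, HLU 2 or HLU 8.

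None of the 7 tested genes for pyrophosphate and nucleotides was called, with estimates from -0.28 for Entpd3 to 0.36 for Entpd2, both ecto-enzymes that break down nucleotides, and a median of 0.03. Entpd3 was called with the osteoblast and osteocyte score as a covariate, at -0.45, and Entpd2 stood at 0.12 with a pseudocount of 1 and at 0.095 without the 2 smallest libraries. None of the 11 tested genes for sphingomyelin and matrix vesicle lipids was called either, from -0.27 for the sphingomyelinase Smpd4 to 0.23 for the annexin Anxa6, with a median of -0.02. Smpd4 was called without HLU 3, at -0.35, and stood at -0.057 with the marrow score as a covariate. Of the other phosphate transporters, the exporter Xpr1 was 7.65 ± 1.58 RPKM in Control and 7.98 ± 1.23 RPKM in HLU mice (SD over 8 mice in each group, log2 fold change 0.07, exact permutation p = 0.595), and Slc34a1, Slc34a2 and Slc34a3 were below the filter. The alkaline phosphatase paralogs Alpi, Alppl2 and Akp3 were listed at 0 in all mice. Phospho2, the paralog of Phospho1, had an estimate of -0.06 on the log2 scale (exact permutation p = 0.644), which turned above 0 under both other scalings.

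Mice of the same group differed from each other in a shared way for many of these genes. With group means removed, 15 of the 28 pairs covaried over the 16 mice (Pearson's r, permutation test within groups, adjusted p under 0.05), 10 positively and 5 negatively, and all 5 negative pairs included Slc20a1. By Spearman's rho, 13 of these 15 pairs passed as well, and Alpl with Slc20a1 (adjusted permutation p = 0.0546) and Phospho1 with Mgp (adjusted permutation p = 0.0724) did not. Strong correlation was common in these libraries: the smallest absolute r among the 15 pairs, 0.556, was reached by 20.1% of all features for Alpl and by up to 43.8% for Slc20a2. Whether the members covaried more often than other features was not tested.

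Alpl and Phospho1 rose and fell together, with r = 0.87 and Spearman's rho = 0.90 (permutation test, adjusted p = 0.000560 and 0.000373). The relation held in Control mice (r = 0.89) and in HLU mice (r = 0.86), after leaving out the 2 mice farthest from the Alpl median (r = 0.88), and after adjusting both genes for the osteoblast and osteocyte marker score (r = 0.83). Smpd3 varied with both, at r = 0.76 with Phospho1 (rho = 0.86, permutation test, adjusted p = 0.00414) and r = 0.75 with Alpl (rho = 0.88, permutation test, adjusted p = 0.00611). After adjustment for the osteoblast and osteocyte score, r was 0.62 between Smpd3 and Phospho1 and 0.50 between Smpd3 and Alpl, and of the 2 only the former still passed (permutation test, adjusted p = 0.0451 and 0.153). The Phospho1 reads cannot be told apart from those of Abi3, so each relation of Phospho1 given here describes reads that Abi3 may share.

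Ank and Mgp formed a second close pair, the pyrophosphate exporter with the Gla protein inhibitor. Their r was 0.87 and rho 0.92 (permutation test, adjusted p = 0.000560 and 0.000373), with 0.84 in Control mice, 0.92 in HLU mice, 0.82 without HLU 6 and HLU 7 and 0.85 after adjustment for the osteoblast and osteocyte score. Slc20a2 varied with Phospho1 (r = 0.83, rho = 0.82, permutation test, adjusted p = 0.00280) and with Mgp (r = 0.79, rho = 0.74, permutation test, adjusted p = 0.00357). Without the 2 mice farthest from the Phospho1 median, r with Phospho1 was 0.86. Without the 2 farthest from the Slc20a2 median, r with Mgp was 0.75. Enpp1 varied with Ank (r = 0.73, rho = 0.69, permutation test, adjusted p = 0.0103), at 0.77 without Control 8 and HLU 5, but the pair did not pass after adjustment for the osteoblast and osteocyte score (r = 0.63, adjusted permutation p = 0.0791) or the marrow score (r = 0.60, adjusted permutation p = 0.0540). By rho Enpp1 also passed with Mgp (adjusted permutation p = 0.0499), as did Slc20a2 with Smpd3 (rho = 0.66, adjusted permutation p = 0.0280). The r of Slc20a2 with Smpd3 was 0.49 and did not pass. The remaining positive pairs were weaker: Ank with Slc20a2 (r = 0.66, and 0.46 without HLU 6 and HLU 7, and it no longer passed without Control 1 or without HLU 7), Alpl with Slc20a2 (r = 0.59, and 0.65 without Control 6 and HLU 1) and Phospho1 with Mgp (r = 0.57, and 0.66 without HLU 1 and Control 5). Alpl with Slc20a2 no longer passed when any of 10 single mice was left out and Phospho1 with Mgp when any of 12 was, and neither passed after adjustment for the osteoblast and osteocyte score (adjusted permutation p = 0.0671 and 0.166) or the marrow score (adjusted permutation p = 0.0617 and 0.0678).

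Slc20a1 ran against the other 7 genes, with a negative r for each. It was r = -0.74 with Phospho1 (rho = -0.62, permutation test, adjusted p = 0.00652), -0.69 with Ank (rho = -0.71, adjusted permutation p = 0.0164), -0.68 with Slc20a2 (rho = -0.63, adjusted permutation p = 0.0138), -0.62 with Alpl (rho = -0.54, adjusted permutation p = 0.0252) and -0.56 with Mgp (rho = -0.57, adjusted permutation p = 0.0470). Those with Enpp1 (r = -0.55) and Smpd3 (r = -0.38) did not pass. With rho, the pair with Enpp1 reached an adjusted permutation p of 0.0499, and by median of ratios both pairs passed (r = -0.68 and -0.54, adjusted permutation p = 0.0163 and 0.0434). Without the 2 mice farthest from the median of the other gene, r was -0.64 with Phospho1, -0.57 with Ank and -0.45 with Alpl. Without the 2 farthest from the Slc20a1 median (HLU 7 and HLU 1), r was -0.56 with Slc20a2 and -0.64 with Mgp. After adjustment for the osteoblast and osteocyte score, 1 of the 5 negative pairs still passed, that with Slc20a2 (r = -0.65, adjusted permutation p = 0.0226), and Phospho1 had r = -0.64 (adjusted permutation p = 0.0507), Ank -0.59, Alpl -0.41 and Mgp -0.45. After adjustment for the marrow score, 3 of the 5 passed, with Phospho1 (r = -0.94), Alpl (-0.81) and Slc20a2 (-0.80), as did the pair with Smpd3 (-0.70, adjusted permutation p = 0.00739), whereas Ank (-0.54) and Mgp (-0.51) did not pass and Enpp1 had r = -0.04. When 1 mouse was left out, the pair with Mgp no longer passed for 10 of the 16 mice and that with Alpl for 4, and those with Ank and Slc20a2 did not pass without HLU 7. Over all features, 10.8% had an r with Slc20a1 at or below -0.556.

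Between Alpl and the other pyrophosphate genes the relation was not seen over all mice (r = 0.34 with Ank and 0.29 with Enpp1). It was 0.75 with Ank and 0.57 with Enpp1 in Control mice and -0.09 and -0.01 in HLU mice, and the median r over the 28 pairs was 0.62 in Control and 0.10 in HLU mice. Those differences between groups were not tested.

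**Figure D4:**
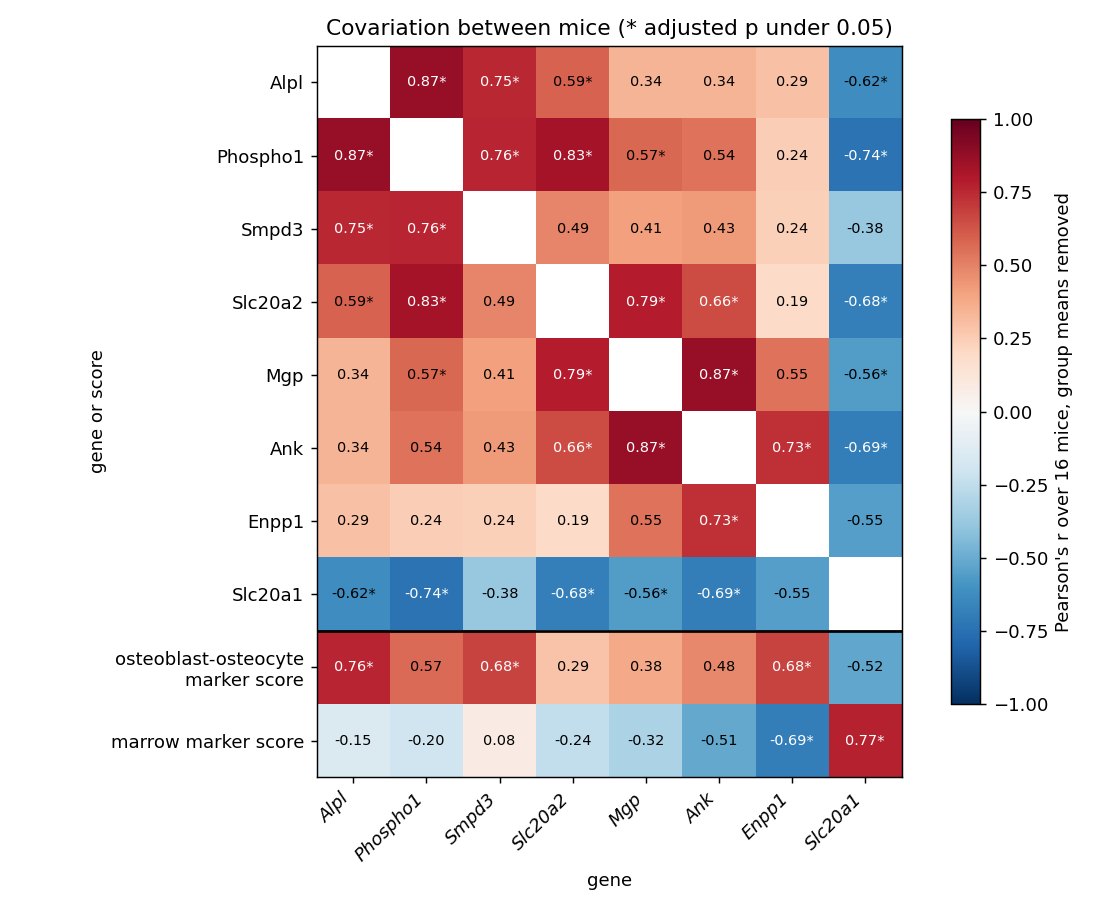
Pearson's r between each pair of genes over 16 mice with group means removed, and between each gene and the osteoblast-osteocyte and marrow marker scores, on a colour scale from -1 to 1, with an asterisk for an adjusted permutation p under 0.05. Alpl, Phospho1 and Smpd3 share high r, Ank pairs with Mgp at 0.87, and the Slc20a1 row is negative for the other 7 genes and 0.77 for the marrow score.

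**Figure D5:**
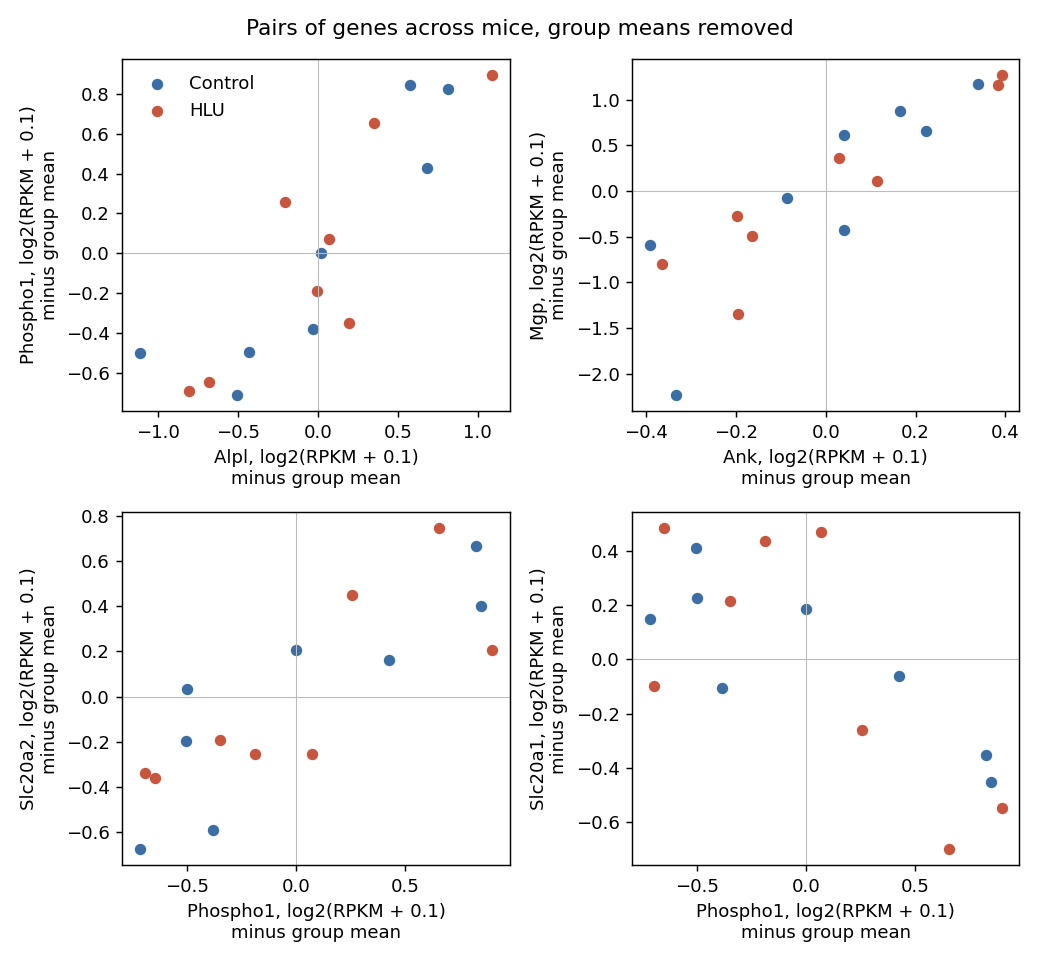
Log2(RPKM + 0.1) minus the group mean for 4 pairs of genes, with each point 1 of 8 Control or 8 HLU mice. Mice of both groups lie along the same rising trend for Alpl with Phospho1 (r = 0.87), Ank with Mgp (r = 0.87) and Phospho1 with Slc20a2 (r = 0.83), and along a falling one for Phospho1 with Slc20a1 (r = -0.74).

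Markers of other cells moved with several of these genes. Against the osteoblast and osteocyte score, Alpl had r = 0.76 (rho = 0.80), Smpd3 0.68 (rho = 0.75) and Enpp1 0.68 (rho = 0.65), each with an adjusted permutation p of 0.0219 over 16 relations, and Slc20a1 had r = -0.52, which did not pass (adjusted permutation p = 0.0729), and rho = -0.56, which did (adjusted permutation p = 0.0463). Against the marrow score, Slc20a1 had r = 0.77 (rho = 0.83) and Enpp1 r = -0.69 (rho = -0.58), each again with an adjusted permutation p of 0.0219 for r, and for rho with 0.00752 and 0.0507. The osteoblast and osteocyte score itself did not differ between groups (log2 difference 0.14, exact permutation p = 0.586).

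Each marker list was also set against each gene, together with library depth, in 80 relations chosen after the values were seen. Slc20a1 followed the granulocyte markers most closely (r = 0.88, rho = 0.91, adjusted permutation p = 0.00533), at 0.89 in Control and 0.90 in HLU mice. Ank, Enpp1 and Mgp varied inversely with the granulocyte markers (r = -0.76, -0.70 and -0.62, adjusted permutation p = 0.00670, 0.0195 and 0.0260). Slc20a1 did not pass with erythroid markers (r = 0.60, adjusted permutation p = 0.0629). Alpl, Phospho1 and Smpd3 followed the 2 chondrocyte markers kept, with r of 0.88, 0.83 and 0.80 (rho of 0.89, 0.87 and 0.87, adjusted permutation p of 0.00320, 0.00533 and 0.00533). Slc20a2 followed smooth muscle and pericyte markers (r = 0.82) and adipocyte markers (r = 0.80), and Mgp did so with r = 0.75 for each, all 4 with an adjusted permutation p of 0.0106 or less. Those lists were not particular to Slc20a2 and Mgp. Phospho1 had r = 0.77 and 0.76 with them (adjusted permutation p = 0.0106 and 0.0110). Ank and Alpl passed with smooth muscle and pericyte markers (r = 0.73 and 0.68, adjusted permutation p = 0.0143 and 0.0260). Ank also passed with adipocyte markers (r = 0.63, adjusted permutation p = 0.0447). Slc20a1 ran against smooth muscle and pericyte markers (r = -0.78, adjusted permutation p = 0.00670). Enpp1 and Smpd3 did not pass by r with either list. By rho Smpd3 passed with both (rho = 0.63 and 0.64, adjusted permutation p = 0.0366 and 0.0289). Endothelial markers passed with Alpl, Slc20a2, Phospho1 and Mgp (r = 0.67, 0.64, 0.62 and 0.60, adjusted permutation p = 0.0244, 0.0310, 0.0444 and 0.0444). Slc20a1 ran against the endothelial markers (r = -0.72, adjusted permutation p = 0.0261). By r, osteoclast markers passed with Smpd3 alone (r = 0.61, adjusted permutation p = 0.0447). Several genes thus passed with more than 1 list. Library depth had an r between -0.33 and 0.30 with the 8 genes. What part these cell types had in the levels was not tested.

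The features most like each gene between mice were named by r over the 16 mice, out of 15743 others with a unique symbol, as a description. Alpl was closest to Creb3l1 (r = 0.96), a transcription factor of collagen-secreting osteoblasts, Serpinh1 (0.95), the collagen chaperone, and Bgn (0.93), a matrix proteoglycan. Phospho1 was closest to the overlapping gene Abi3 (0.99), then to Rab3a (0.95) and the Wnt co-receptor Lrp5 (0.93). Enpp1 was closest to Tmem45a (0.97), the Notch ligand Jag1 (0.96) and Megf10 (0.95).

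Ank was nearest to Aifm2 (0.96), Cyb561 (0.96) and Kremen1 (0.95), a receptor for the Wnt inhibitor Dkk proteins, and Mgp to Thbs4 (0.95), Map1lc3b (0.95) and Apod (0.95). Slc20a1 was nearest to Mtfr1 (0.99), Slc43a3 (0.98) and Tyms (0.98), the thymidylate synthase of dividing cells. Slc20a2 was nearest to Map1lc3a (0.95), Trip10 (0.94) and Pex19 (0.94), and Smpd3 to Gm25549 (0.94), Chd3 (0.92) and Bcar1 (0.92). Among these 15743 features Phospho1 ranked 32nd for Alpl and Mgp 123rd for Ank, whereas Phospho1 ranked 15430th for Slc20a1, near the negative end.

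Smaller overlaps in GENCODE M21 touch other genes of the group. Exons of the opposite-strand transcript 9830144P21Rik cover 8.10% of the Slc20a1 exon bases (r = 0.88 between them), those of Prmt7 cover 4.72% of Smpd3 (r = 0.79) and those of Smim19 cover 1.53% of Slc20a2 (r = 0.35). Alpl, Enpp1 and Mgp overlap no other annotated gene there.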

How the data were processed

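RNA was sequenced from femoral cortical bone of 8 Control and 8 HLU mice, grouped by the sample titles. The authors prepared TruSeq v2 libraries, aligned reads with TopHat2 and deposited RPKM values, 1 table per mouse. The submitters' processing notes name TopHat2, DESeq2 and the mm9 build, and the annotation and the counting are not given in the sources used here. The paper states that 8 samples were multiplexed in each lane. Lanes are not labelled, so batches were not examined, and whether lanes coincide with the groups is not known.

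RPKM values were tested with limma 3.58.1 in R 4.3.3 on log2(RPKM + 0.1), with a variance trend and Benjamini-Hochberg adjustment over the 16973 features whose mean reached 0.5 RPKM. Fold changes are on the log2(RPKM + 0.1) scale, which understates changes of low genes. Intervals are at 95%. Single values were tested over all 12870 splits of the mice (exact, two-sided, smallest p 0.000155), levels within mice by sign flips (smallest p 0.00781), and correlations by 100000 permutations within groups, all two-sided. Whole reads came back from the RPKM steps for 16973 of 16973 features and served an alternative fit with voom. Scripts were tested on simulated data. Coordinates are RefSeq promoters on GRCm38.p6, not converted to mm9.

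The genes and lists were chosen with earlier results of these data known. The named genes were the 8 members, the 3 features most like each, and from each pathway list those with an unadjusted p under 0.05 and those with the highest and lowest estimates. Alternatives were other pseudocounts, filters and scalings, voom, a replicate block, marker scores as covariates, and leaving out mice. Muscle markers were not analysed here.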

Additional observations from a re-analysis of the deposited data

Results flagged for a closer look

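The log2 ratio of Phospho1 to Smpd3 held 1 Control mouse apart from the other 7. Control 2 had a log2 ratio of 6.44, and its gap to the nearest Control mouse was 0.629 of the range of the group, above Dixon's critical value at the 95% level for 8 values. Smpd3 was listed at 0 in that mouse, so its ratio rests on the pseudocount. It was 1 of 26 groups of values examined in this way, and chance alone flags about 1 group in 20.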

How the results depend on the processing

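Slc20a1 was lower after HLU under every setting run, but the call was lost (with 0 genes of the 8 called) by median of ratios (-0.36), by quantile normalization (-0.31), with the replicate number as a block (-0.45), with the marrow score as a covariate (-0.23) and without the 2 smallest libraries (-0.45), and leaving out 1 mouse gave -0.52 to -0.35 and 0 to 1 called genes. Same-numbered mice correlated between -0.17 and 0.51 in their deviations and only mouse 4 matched its own number best, and the block called 1039 features. These correlations showed no strong pairing by number, but they cannot show whether same-numbered mice were handled together. Mepe kept its sign (0.64 to 0.95). Signs near 0 turned: Phospho2 to 0.035 and 0.064 by median of ratios and quantile normalization, Xpr1 to -0.029 with the marrow score, Mgp to 0.082 by median of ratios and 0.14 by quantile normalization, Enpp1 to -0.017 with voom, Alpl, Phospho1, Enpp1 and Slc20a2 to -0.028, -0.016, -0.19 and -0.056 with the marrow score and to -0.092, -0.021, -0.069 and -0.012 with the osteoblast and osteocyte score, and Alpl and Enpp1 to -0.049 and -0.14 without the 2 smallest libraries. Leaving out 1 mouse gave ranges of -0.12 to 0.16 for Alpl, -0.055 to 0.19 for Phospho1, -0.070 to 0.076 for Enpp1, -0.083 to 0.12 for Slc20a2, -0.12 to 0.0016 for Phospho2, -0.76 to 0.087 for Smpd3 and -0.33 to 0.18 for Mgp, and of -0.13 to 0.21 and -0.12 to 0.033 for the log2 ratios of Alpl to Enpp1 and to Phospho1. Features called numbered 996, 455 with the marrow score, and 588 (without HLU 7) to 1748 (without HLU 2) when 1 mouse was left out, with 649 without Control 6 and 659 without Control 7. The adjusted threshold was passed by 1 feature with no filter and by 0 to 1 when 1 mouse was left out. Pairs that covaried fell from 15 to 7, and the median r from 0.42 to 0.19, after adjustment for the osteoblast and osteocyte score, against 9 to 16 pairs when 1 mouse was left out (9 without HLU 7), and a median r of 0.62 in Control and 0.10 in HLU mice alone. The causes were not tested. With a mean of at least 2 RPKM required, Smpd3 gave no value, and its 0 to 128 reads limit what can be said of it.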
